A study of Mus musculus with 2 samples.

Results

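The genes described here are 10 genes of the MHC class I pathway: the heavy chains H2-K1 and H2-D1, the light chain gene B2m, the peptide-loading genes Tap1, Tap2 and Tapbp, the immunoproteasome subunits Psmb8, Psmb9 and Psmb10, and the transactivator Nlrc5. They were taken by symbol from the 32286 features of the deposited matrices, and all 10 were present. Their messages were counted in single cells of mouse bone marrow in 2 droplet libraries, 1 per genotype. The control library is Mx1Cre+/-;Rosa26+/+ and the MYC library is Mx1Cre+/-;Rosa26LSL-MYC/LSL-MYC. Both genotypes therefore carry Mx1-Cre, a recombinase behind an interferon-inducible promoter that is active in blood stem cells and in other cell types too. The MYC genotype also carries a MYC transgene in both Rosa26 alleles that stays silent until Cre removes a stop cassette. The labels name no agent that switched Cre on, and they give no age, strain, H2 haplotype or number of animals. The series' text states the purpose as a comparison of expression in bone marrow blood cells after MYC is overexpressed in stem cells.

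With 1 library per genotype there is no spread between replicates, so genotype, animal and library preparation cannot be told apart and no test was possible. Every interval below is a 95% interval of counting error only. A gene is called higher or lower in a class when its share of all UMIs (unique molecular identifiers, each standing for 1 counted transcript molecule) differed by at least 1.5-fold, with at least 50 UMIs in that class over both libraries. Levels are given as CPM, UMIs of the gene per 1000000 UMIs of the class, and ratios as log2 of MYC over control, so that -1 is 0.5 of the control level.

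Classical class I molecules display peptides from inside the cell to CD8 T cells. Proteasomes cut proteins into peptides, Tap1 and Tap2 form the transporter that carries the peptides into the endoplasmic reticulum, and tapasin, the product of Tapbp, bridges the transporter to empty heavy chain bound to beta-2 microglobulin (B2m). In interferon-exposed cells and in many blood cells, Psmb8, Psmb9 and Psmb10 replace the constitutive catalytic subunits Psmb5, Psmb6 and Psmb7, which changes the peptides made. Nlrc5 is a nuclear protein that, with the factors bound to the promoters of class I genes, raises transcription of heavy chains, B2m, Tap1 and Psmb9. Interferons induce the pathway.

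In the GENCODE vM21 annotation of GRCm38, 7 of the 10 genes lie on chromosome 17: Tapbp from 33915899 to 33929292, H2-K1 from 33996017 to 34000347, Psmb9 from 34181987 to 34187764, Tap1 from 34187553 to 34197225, Psmb8 from 34197721 to 34201454, Tap2 from 34203527 to 34216321 and H2-D1 from 35262730 to 35267499. B2m is on chromosome 2 from 122147686 to 122153083. Nlrc5 lies on chromosome 8 from 94434356 to 94527272 and Psmb10 on the same chromosome from 105935735 to 105938444. RefSeq promoter windows on GRCm38.p6, 250 bases before to 50 after a start site, were matched by symbol for 8 of the 10 genes, without Tap2 and Nlrc5. They were searched on both strands for the interferon-response-element letters GAAANNGAA and, added after the promoters had been seen, GAANNGAAA, which can overlap it. These letters occur in 8.56% and 7.52% of all 32851 promoter windows and either of them in 14.8%, and 3 of the 8 members held either. The 3 windows are shown because H2-K1 and B2m were among the genes that were lower in the MYC library while H2-D1, with nearly the same letters as H2-K1, was not. Capitals mark the match, H2-K1 is on the minus strand and the others on the plus strand.
H2-K1, chr17:34000369-34000497: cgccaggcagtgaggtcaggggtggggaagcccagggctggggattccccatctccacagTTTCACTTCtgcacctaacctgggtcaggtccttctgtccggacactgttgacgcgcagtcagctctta
H2-D1, chr17:35262884-35263012: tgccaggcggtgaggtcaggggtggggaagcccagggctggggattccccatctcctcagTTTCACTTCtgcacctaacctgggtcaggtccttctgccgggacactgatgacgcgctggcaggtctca
B2m, chr2:122147488-122147616: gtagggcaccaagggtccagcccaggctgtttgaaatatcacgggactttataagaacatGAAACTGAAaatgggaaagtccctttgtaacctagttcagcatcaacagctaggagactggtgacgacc
The H2-K1 and H2-D1 windows were identical at 119 of 129 bases (92.2%), and both also hold the letters GGGNNTTCC of an NF-kB site, which 5.82% of all windows hold. The match begins 90 bases before the nearer of the 2 listed start sites of H2-K1, 150 bases before that of H2-D1 and 139 before that of B2m. A match is a description of letters, not of binding.

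Tap1 and Psmb9 are transcribed away from each other from RefSeq start sites 226 bases apart, while their GENCODE bounds overlap at these ends. The stretch between the RefSeq start sites is shown because these neighbours had different ratios. It is chr17:34187330-34187556 on the plus strand, the strand of Tap1, and the capitals mark its single CCAAT, letters that 37.4% of all windows hold.
Tap1 and Psmb9: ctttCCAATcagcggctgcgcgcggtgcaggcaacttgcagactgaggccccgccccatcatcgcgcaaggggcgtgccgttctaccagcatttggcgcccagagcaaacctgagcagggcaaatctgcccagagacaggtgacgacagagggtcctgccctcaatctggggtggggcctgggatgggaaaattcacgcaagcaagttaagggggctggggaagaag
Neither set of interferon-response-element letters occurs in the windows of Tap1, Tapbp, Psmb8, Psmb9 or Psmb10. The windows of Tapbp, Psmb8, Psmb9 and H2-D1 lie wholly inside the GENCODE bounds of these genes. For these genes no sequence before the GENCODE bounds was searched.

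After filters 14903 control cells and 12540 cells of the MYC library remained, with 121642346 and 101793556 UMIs and medians of 5343 and 6016 UMIs per cell. The feature named MYC, whose sequence is not stated, had 0 UMIs in the control library, where 3 counts would be 0.0247 CPM, and 289 in the MYC library, 151 of them in mature neutrophils. Cells were clustered without the members or their pathway genes. The classes read here are 9 named from marker genes plus the unnamed cluster 11, each with at least 100 cells in each library. The unnamed clusters 0 (2466 control and 2623 MYC cells, of low depth) and 16 (306 and 135) also passed 100 cells. They were not read as classes but are part of all kept cells. The 10 members summed to 3564 and 2431 CPM in cluster 0 and to 815 and 701 CPM in cluster 16, control first. The classes held 138 to 3995 cells per library. Cluster 11 was led by Ace, Adgre4 and the MHC class II genes H2-Aa, H2-Ab1 and H2-Eb1. Mature neutrophils came from clusters shared unequally by the libraries: cluster 1 held 2105 control and 1794 MYC cells, cluster 4 held 1768 and 172, and cluster 5 held 122 and 1319. Neutrophil markers, read as a measure of free RNA, stood in non-neutrophil classes at 2.60% to 8.94% of their level in the neutrophil lineage. The libraries shared 97 barcodes, 79 of them among kept cells. Without these, 1 of 119 ratios of the classes, the joined granulocyte classes and all kept cells moved by more than 0.05. It was that of Nlrc5 in mature B cells, from 0.05 to -0.16.

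The heavy chain H2-K1 was lower in the MYC library in the neutrophil and monocyte classes. In mature neutrophils it stood at 572 CPM in the control (9450 UMIs) and 267 CPM in the MYC library (4708 UMIs), a ratio of -1.10 (-1.15 to -1.05). Immature neutrophils had 336 and 199 CPM (-0.76, -0.81 to -0.70), monocytes 688 and 399 CPM (-0.79, -0.84 to -0.74) and cluster 11 1442 and 756 CPM (-0.93, -1.02 to -0.85), control first. These 4 classes passed 1.5-fold, and granulocyte progenitors, with 621 and 462 CPM (-0.43, -0.48 to -0.37), did not. H2-K1 was nearly level in T or NK cells, with 1669 CPM in the control against 1717 in the MYC library (0.04, -0.05 to 0.13). In erythroid cells it was the other way, 210 and 263 CPM (0.32, 0.24 to 0.40), with -0.11 in erythroid cluster 6 and 0.32 in erythroid cluster 17. Within cluster 1, the mature neutrophil cluster held by both libraries in similar numbers, the ratio of H2-K1 was -1.02, and in clusters 4 and 5 it was -0.95 and -0.80.

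H2-D1, the other classical heavy chain, passed 1.5-fold in none of the 10 classes, and its ratios ran from -0.34 in cluster 11 to 0.42 in T or NK cells. In mature neutrophils it stood at 1397 CPM in the control against 1202 in the MYC library (-0.22, -0.24 to -0.19), and in monocytes at 1079 and 959 CPM (-0.17, -0.20 to -0.13). It was higher in the MYC library in granulocyte progenitors (626 and 724 CPM, 0.21), in stem or multipotent progenitors (624 and 743 CPM, 0.25) and in basophils or mast cells (876 and 1062 CPM, 0.28). Over settings its ratio in monocytes ran from -0.32 to 0.02, above 0 at a Leiden resolution of 0.5. With median-of-ratios scaling its sign turned in immature (0.05) and mature neutrophils (0.01), and at a Leiden resolution of 2 it passed 1.5-fold in stem or multipotent progenitors (0.60).

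The make-up of heavy chain messages therefore differed between the libraries. Of all H2-D1 plus H2-K1 UMIs of mature neutrophils, H2-D1 held 71.0% of 32530 in the control against 81.8% of 25913 in the MYC library, 10.9 points more (10.2 to 11.6). Monocytes had 61.1% and 70.6% (9.57 points, 8.64 to 10.5) and granulocyte progenitors 50.2% and 61.0% (10.8 points, 9.60 to 12.0). The share was also higher by 6.25 points in T or NK cells (36.6% and 42.9%, 4.03 to 8.49), where H2-K1 itself was level and H2-D1 was higher. In 9 of the 10 classes H2-D1 held a larger share in the MYC library, by 6.25 to 10.9 points, and in erythroid cells its share differed by -3.99 points (59.7% and 55.7%, -5.79 to -2.20). That difference was 2.24 points with doublets kept, and within the erythroid clusters H2-D1 and H2-K1 had like ratios, -0.17 and -0.11 in cluster 6 and 0.26 and 0.32 in cluster 17. A share within a gene pair does not depend on how the library is scaled. Of the 60-base words in the last 500 bases of H2-K1 transcripts, 4.69% also occur in other genes, H2-D1 among them, and of H2-D1 transcripts 3.56%. The H2 haplotype of the animals, which sets how well reads of these variable genes match the reference, is not given in the sources used here.

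B2m, which classical class I heavy chains need to reach the surface, was at least 1.5-fold lower in both later neutrophil classes and cluster 11. It stood at 1334 CPM in control mature neutrophils and 707 CPM in those of the MYC library (-0.91, -0.95 to -0.88), at 1033 and 577 CPM in immature neutrophils (-0.84) and at 2844 and 1764 CPM in cluster 11 (-0.69). Monocytes, with 1713 and 1183 CPM (-0.53, -0.56 to -0.51), granulocyte progenitors (970 and 651 CPM, -0.58) and erythroid cells (856 and 600 CPM, -0.51) were lower by less than 1.5-fold. In mature neutrophil clusters 1, 4 and 5 its ratio was -0.82, -0.49 and -0.59, each nearer to 0 than the joined -0.91 and in cluster 4 short of 1.5-fold. Other classes also join clusters that differed: B2m had a ratio of -0.90 in erythroid cluster 6 and -0.21 in cluster 17, and of -0.63 in monocyte cluster 7 and -0.35 in cluster 10. T or NK cells differed least, with 2052 and 1894 CPM (-0.12, -0.20 to -0.04). B2m was below the control in all 10 classes, and with other settings only stem or multipotent progenitors took a ratio above 0 (-0.27 to 0.15 over settings).

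**Figure D1:**
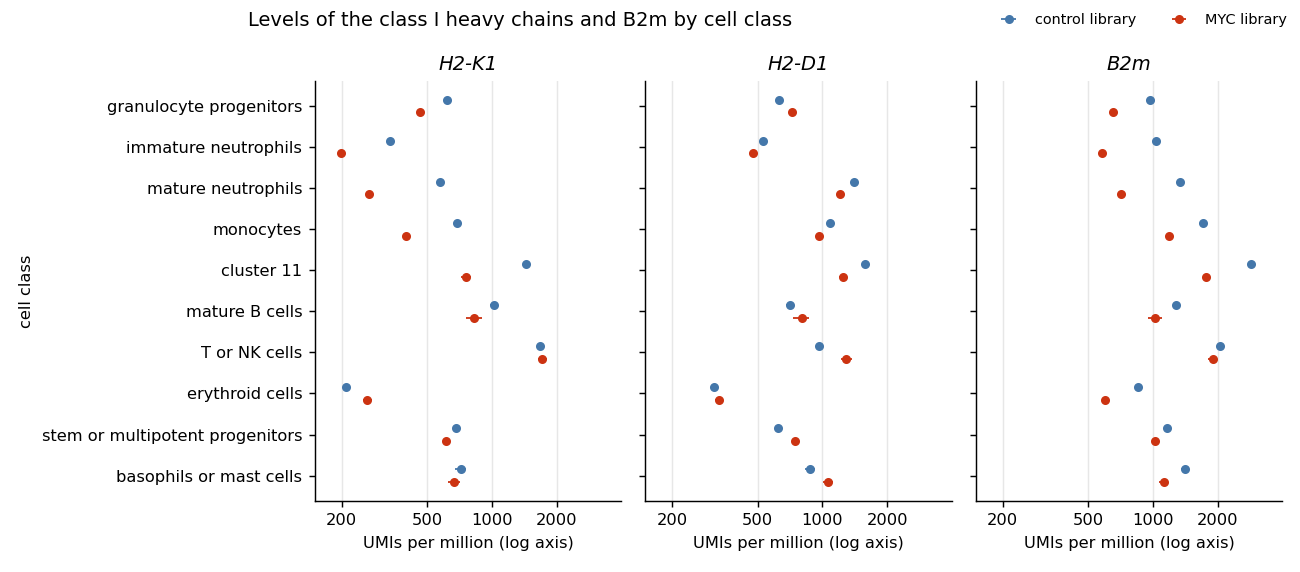
Levels of H2-K1, H2-D1 and B2m in CPM on a log axis, by cell class, with the control library in blue and the MYC library in red; points are 1 library each and bars 95% Poisson intervals, mostly smaller than the points. H2-K1 lies left of the control in both neutrophil classes, monocytes and cluster 11 (267 against 572 in mature neutrophils) and beside it in T or NK cells (1717 against 1669), while the H2-D1 points differ by less than 1.5-fold in every class.

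Of the peptide-loading genes, Tapbp was at least 1.5-fold lower in 8 of the 10 classes, in CPM more than any other member. With median-of-ratios scaling it fell short in granulocyte progenitors (-0.51), mature neutrophils (-0.49) and mature B cells (-0.39). On that scale Psmb8 passed 1.5-fold, upward, in more classes than Tapbp did. Basophils or mast cells had 209 CPM of it in the control against 86.9 in the MYC library (-1.27, -1.57 to -0.97, from 364 and 125 UMIs), and erythroid cells 94.5 and 44.6 CPM (-1.08, -1.26 to -0.91). Monocytes had 222 and 112 CPM (-0.99, -1.08 to -0.90) and mature neutrophils 147 and 89.4 CPM (-0.71). In mature neutrophil clusters 1, 4 and 5 its ratio was -0.67, -0.27 (-0.60 to 0.04) and -0.51, past 1.5-fold in cluster 1 alone. Stem or multipotent progenitors were just short of 1.5-fold (113 and 75.9 CPM, -0.58). T or NK cells stood apart with 191 and 167 CPM, where the interval of the ratio includes 0 (-0.19, -0.47 to 0.08). Tapbp overlaps Zbtb22 on the same strand, and 2.99% of its 60-base words are shared with that gene. Psmb9 and Tap1 overlap each other on opposite strands, and Psmb8, Tap2, B2m, Nlrc5 and Psmb10 each overlap another gene on the opposite strand, while the strand setting of the counting is not given in the sources used here.

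Tap1 and Tap2, the transporter subunits, differed less. Tap1 was lower by at least 1.5-fold in granulocyte progenitors (73.3 and 44.4 CPM, -0.72, -0.89 to -0.55) and mature neutrophils (76.8 and 47.2 CPM, -0.70, -0.83 to -0.58), and stood at 131 and 90.3 CPM in monocytes (-0.54). With median-of-ratios scaling granulocyte progenitors (-0.43) and mature neutrophils (-0.47) fell short of it. Within the mature neutrophil clusters 1, 4 and 5 the ratio of Tap1 was -0.52, -0.12 and -0.40, so it passed 1.5-fold in none of these. In T or NK cells it was higher in the MYC library, 132 and 187 CPM (0.51, 0.23 to 0.78), short of 1.5-fold. Tap2 passed 1.5-fold only in cluster 11 (76.3 and 50.6 CPM, -0.59, -0.94 to -0.25), with immature neutrophils (69.8 and 47.0 CPM, -0.57) and stem or multipotent progenitors (85.5 and 57.5 CPM, -0.57) just short of it. Mature neutrophils had 81.3 and 62.3 CPM of Tap2 (-0.38, -0.50 to -0.27). For both genes, T or NK cells were the class with the highest ratio.

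The immunoproteasome subunit Psmb8 was higher in the MYC library in all 10 classes, and past 1.5-fold in 6 of them. With median-of-ratios scaling immature neutrophils (0.74), monocytes (0.66) and cluster 11 (0.71) passed it too, and mature neutrophils (0.37) did not. Erythroid cells had 27.5 CPM in the control against 70.5 in the MYC library (1.36, 1.18 to 1.54), T or NK cells 247 and 587 CPM (1.25, 1.08 to 1.42) and basophils or mast cells 163 and 308 CPM (0.92, 0.70 to 1.14). Stem or multipotent progenitors stood at 301 and 495 CPM (0.72, 0.66 to 0.78), and granulocyte progenitors at 179 and 290 CPM (0.70). The difference was smallest in mature neutrophils, with 85.3 and 94.3 CPM (0.15, 0.04 to 0.25), and monocytes stood between, with 311 and 449 CPM (0.53). Within mature neutrophil clusters 1, 4 and 5 the ratio of Psmb8 was 0.27, 0.72 and 0.15, past 1.5-fold in cluster 4.

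Psmb10 had ratios from 0.01 in mature B cells (74.4 and 74.8 CPM, -0.47 to 0.46) to 0.82 in T or NK cells (107 and 188 CPM, 0.53 to 1.10), and passed 1.5-fold in T or NK and erythroid cells (29.2 and 45.4 CPM, 0.64, 0.43 to 0.84). Within erythroid clusters 6 and 17 it did not, with 0.38 (-0.10 to 0.84) and 0.47 (0.24 to 0.69), nor in erythroid cells with doublets kept (0.32). Psmb9 passed it in T or NK cells alone, with 114 CPM in the control against 253 in the MYC library (1.14, 0.89 to 1.40). It was close to level in mature neutrophils (88.3 and 91.0 CPM, 0.04, -0.06 to 0.15), monocytes (170 and 179 CPM, 0.07, -0.01 to 0.16) and granulocyte progenitors (143 and 150 CPM, 0.07). In mature B cells it was lower, 158 and 123 CPM (-0.37, -0.72 to -0.02). In mature neutrophil cluster 1, the one held by the libraries in similar numbers, Psmb9 had a ratio of 0.23 (0.09 to 0.37) and Tap1, across the 226 bases shown above, one of -0.52 (-0.69 to -0.34). In clusters 4 and 5 Psmb9 had 0.13 and 0.17, with intervals that include 0.

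**Figure D2:**
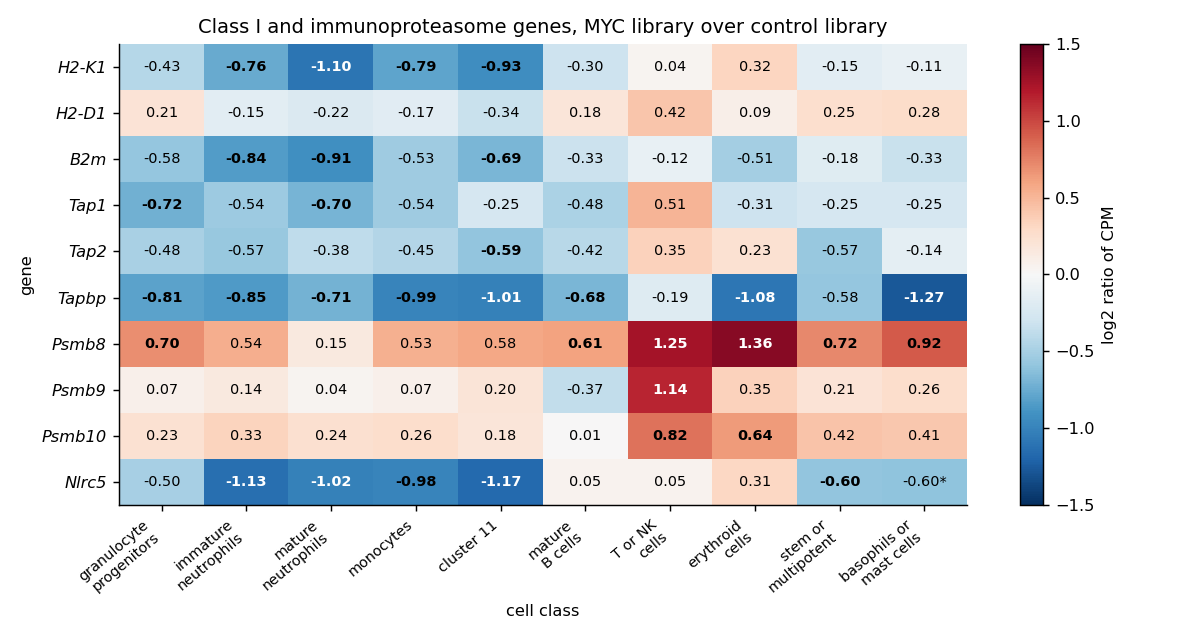
Log2 ratio of CPM, MYC library over control library, for the 10 genes (rows) in 10 cell classes (columns); blue is lower and red higher in the MYC library, bold marks at least 1.5-fold, and the asterisk marks under 50 UMIs. H2-K1 and Nlrc5 have their 4 lowest ratios in the columns of immature and mature neutrophils, monocytes and cluster 11, with H2-K1 at -1.10 in mature neutrophils, and the row of Psmb8 is above 0 throughout, from 0.15 to 1.36.

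Of the constitutive subunits, Psmb5 and Psmb6 were above the control in all 10 classes and Psmb7 in 8, so each immunoproteasome subunit was also read as its share of the UMIs of its pair with the subunit it replaces. Psmb5 and Psmb6 were higher in the MYC library in monocytes, Psmb5 at 140 and 239 CPM (0.77, 0.69 to 0.86) and Psmb6 at 138 and 238 CPM (0.78, 0.70 to 0.87). In the neutrophil lineage, which joins the 3 granulocyte classes, Psmb6 stood at 64.6 and 102 CPM (0.66, 0.60 to 0.73). Psmb7 stood below the control in granulocyte progenitors (95.6 and 82.7 CPM, -0.21, -0.34 to -0.08) and mature B cells (-0.31, -0.90 to 0.25), and its highest ratio was 0.48 in monocytes. Psmb9 held a smaller share beside Psmb6 in 9 of 10 classes of the MYC library: mature neutrophils had 78.5% in the control against 62.5% in the MYC library (-16.0 points, -18.7 to -13.3), and monocytes 55.2% and 43.0% (-12.2 points, -14.3 to -10.1). In erythroid cells the difference of -3.76 points became 0.28 with doublets kept. T or NK cells were the exception, with 65.5% and 70.3% and an interval that includes 0 (4.83 points, -2.06 to 11.5).

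The share of Psmb8 beside Psmb5 was larger in the MYC library in erythroid cells (20.1% and 28.8%, 8.69 points, 6.05 to 11.4), T or NK cells (77.7% and 84.0%, 6.30 points, 2.13 to 10.3), basophils or mast cells (6.93 points) and granulocyte progenitors (3.40 points). It was smaller in mature neutrophils, with 66.0% and 54.9% (-11.1 points, -13.8 to -8.34), in cluster 11 (-6.92 points), in monocytes, with 69.03% and 65.3% (-3.76 points, -5.33 to -2.18), and in immature neutrophils (-3.19 points). Psmb10 beside Psmb7 differed by 7.56 points in granulocyte progenitors (43.6% and 51.1%, 4.24 to 10.9), where Psmb10 had a ratio of 0.23 and Psmb7 one of -0.21, and by -1.70 points in mature neutrophils, where the interval includes 0 (-5.77 to 2.34). A higher level of an immunoproteasome gene in the MYC library thus went with a lower share of its pair in some classes, as for Psmb8 in monocytes. These are shares of messages, not of assembled proteasomes.

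**Figure D3:**
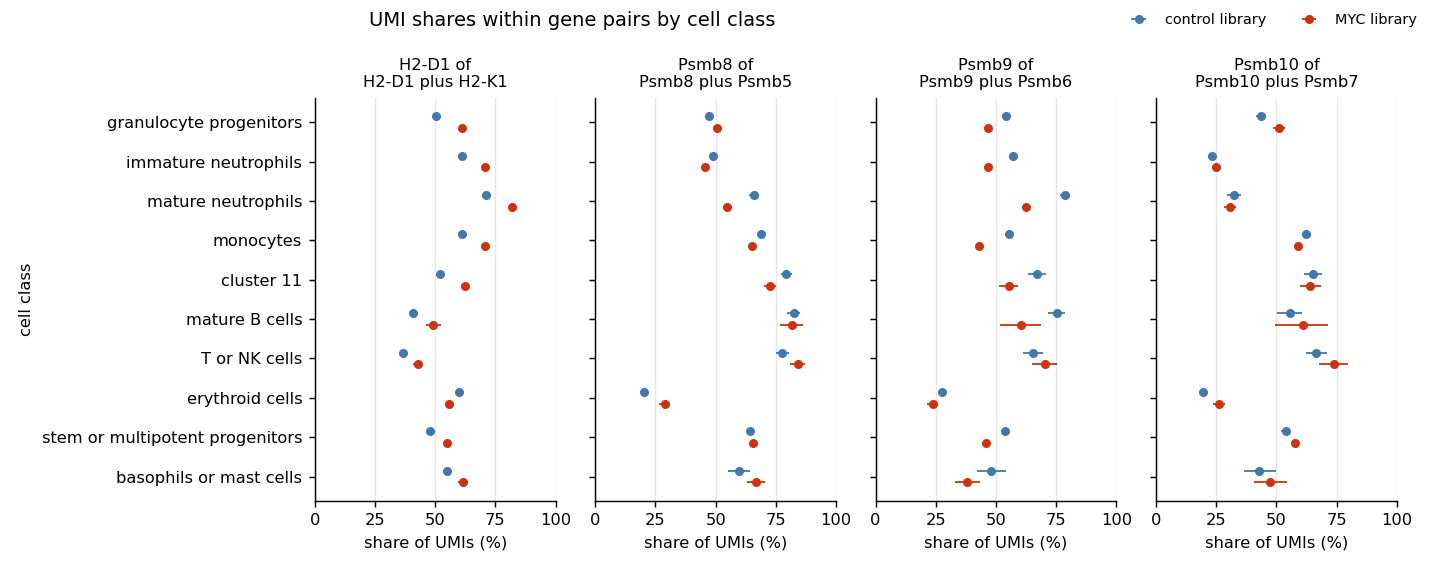
Percent of UMIs within 4 gene pairs, by cell class, in the control library (blue) and the MYC library (red), with 95% Clopper-Pearson intervals. H2-D1 lies right of the control in 9 classes (81.8% against 71.0% in mature neutrophils), Psmb9 left of it in 9 classes (62.5% against 78.5%), and Psmb8 and Psmb10 lie on either side.

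Nlrc5 was counted rarely, at 1488 UMIs in all kept control cells and 734 in those of the MYC library. It was lower in immature neutrophils (3.13 and 1.43 CPM from 74 and 34 UMIs, -1.13, -1.76 to -0.52), mature neutrophils (6.78 and 3.35 CPM, -1.02, -1.5 to -0.55), monocytes (21.2 and 10.7 CPM, -0.98, -1.28 to -0.69) and cluster 11 (33.2 and 14.7 CPM, -1.17, -1.81 to -0.57). Stem or multipotent progenitors had 17.2 and 11.3 CPM (-0.60, -0.91 to -0.29). By cluster, Nlrc5 had ratios of -0.79 in mature neutrophil cluster 1 and 0.17 (-1.21 to 1.30, from 58 and 7 UMIs) in cluster 4, and of -1.62 in monocyte cluster 7 and -0.49 in cluster 10, short of 1.5-fold. T or NK cells held the highest level in both libraries, 79.0 and 81.8 CPM, and did not differ beyond counting error (0.05, -0.36 to 0.44). In basophils or mast cells 11 and 6 UMIs were too few for a ratio to be counted. Apart from the stem or multipotent progenitors, the classes in which Nlrc5 passed 1.5-fold were the 4 in which H2-K1 passed it.

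Counted by class, 5 of the 10 members were at least 1.5-fold lower in mature neutrophils and 0 higher, against 22.3% of all 9404 genes lower. Within its cluster 1, 4 members were lower and 0 higher, against 19.2% of all genes lower there. Clusters 4 and 5 were held mostly by 1 library each. In cluster 4, 1 member was lower and 1 higher (22.9% and 11.9% of all genes), and in cluster 5, 2 were lower and 1 higher (19.2% and 19.3%), which is near the background. In cluster 11 it was 5 of 10 against 18.9%, in immature neutrophils 4 of 10 against 17.9%, in monocytes 3 of 10 against 17.5% and in the joined neutrophil lineage 5 of 10 against 21.3%. The median ratio of the members was -0.54 in mature neutrophils and -0.49 in monocytes, beside -0.23 and -0.13 over all genes. Granulocyte progenitors had 2 members lower and 1 higher, where 26.6% of all genes were lower and 4.54% higher. In mature B cells 1 was lower and 1 higher (28.2% and 6.93% of all genes), in stem or multipotent progenitors 1 and 1 (15.5% and 4.97%), and in basophils or mast cells 1 and 1 of the 9 members with enough UMIs (20.8% and 8.98%). These shares are near the background, and the members' counts there are no result about them. Erythroid cells had 1 lower and 2 higher (15.1% and 13.8%), and T or NK cells 0 lower and 3 higher (14.8% and 10.7%).

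The scale matters for these counts, since the median gene was below 0 in every class, by 0.06 to 0.30. Median-of-ratios scaling sets that median to 0: the share of genes lower then ran from 7.76% to 13.9% over the 10 classes and the share higher from 11.1% to 16.8%, in place of 14.8% to 28.2% and 4.54% to 13.8%. With it 3 members were lower in mature neutrophils (H2-K1 at -0.87, B2m at -0.69 and Nlrc5 at -0.79), 3 in monocytes and 0 in granulocyte progenitors. In the joined neutrophil lineage Nlrc5 alone was still lower (-0.63), while H2-K1 (-0.53) and B2m (-0.54) fell short. Transcript length moved with the ratios too: with genes of the neutrophil lineage in 5 equal classes by their longest coding transcript, the shortest class, up to 1726 bases, had a median ratio of 0.18, and the longest, from 5060 bases, -0.49. H2-K1, B2m, Psmb8, Psmb9 and Psmb10 are in the shortest class, where 6.44% of genes were lower, while Tap1, Tap2 and Tapbp are in the middle class with a median of -0.31 and Nlrc5 is in the longest. In T or NK cells the shortest and longest classes stood at 0.37 and -0.29. There 31.2% of genes of the shortest class were higher and 4.28% lower. Psmb8, Psmb9 and Psmb10, the members called higher in T or NK cells, are all in that shortest class. The part of length in the members' ratios was not tested.

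Read as UMIs per cell rather than as CPM, all ratios of mature neutrophils stood higher, as cells of that class held a median of 3879 UMIs in the control against 5276 in the MYC library. H2-K1 gave 2.37 UMIs per cell in the control against 1.43 in the MYC library, -0.72 as a log2 ratio, B2m 5.52 and 3.80 (-0.54), and H2-D1 5.78 and 6.46 (0.16). The immunoproteasome genes differed by more per cell than in CPM, Psmb8 with 0.353 and 0.506 UMIs (0.52), Psmb9 with 0.365 and 0.489 (0.42) and Psmb10 with 0.0741 and 0.114 (0.62, past 1.5-fold). Monocytes had 8.22 and 5.37 UMIs of H2-K1 per cell (-0.61). T or NK cells went the other way in depth, with medians of 6440 and 4555 UMIs, and had 12.0 and 9.72 UMIs of H2-K1 per cell (-0.30) and 1.77 and 3.32 of Psmb8 (0.91).

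With each cell thinned to 2000 UMIs and shallower cells left out, the 10 members together gave a median of 7 UMIs in control mature neutrophils and 5 in those of the MYC library, with 10th percentiles of 3 and 2. Monocytes had medians of 9 and 7, cluster 11 of 15 and 10, and T or NK cells of 11 and 14. Erythroid cells had medians of 3 and 2, and 11.4% and 12.5% of them held no member UMI at that depth. In mature neutrophils 395 control cells and 305 cells of the MYC library were left out as too shallow, and in T or NK cells 22 and 26. The whole distribution of mature neutrophils lay lower in the MYC library, with 90th percentiles of 13.1 and 9 UMIs.

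**Figure D4:**
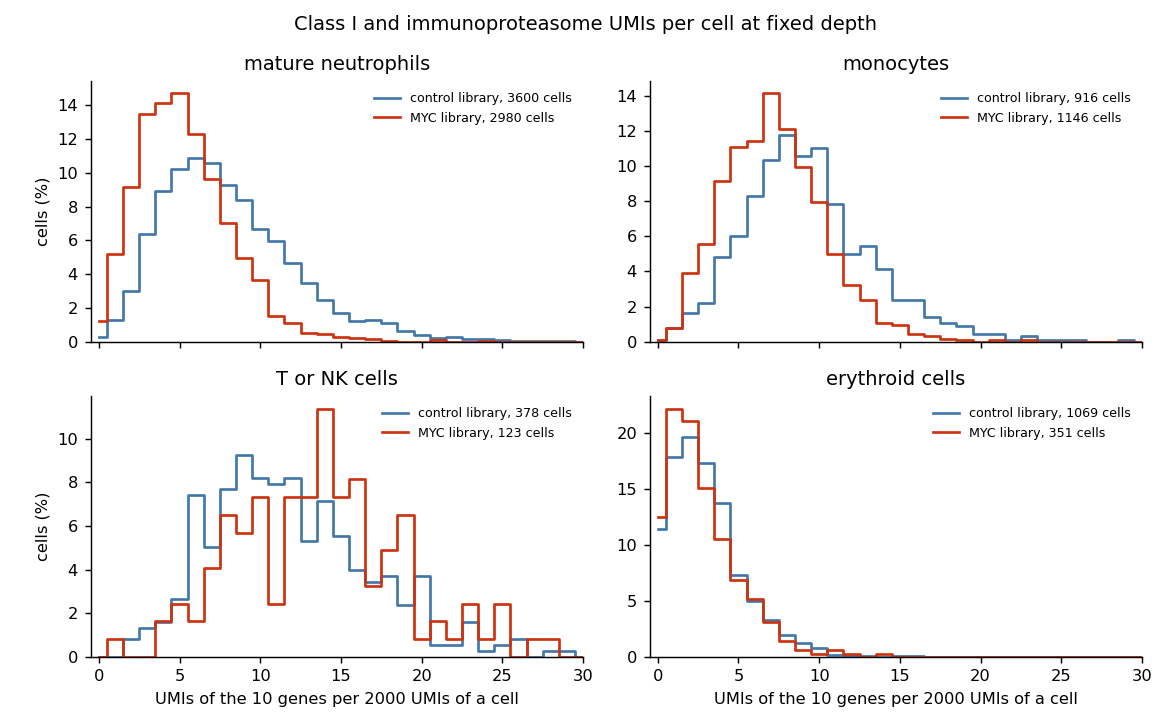
Distribution over cells of the UMIs of the 10 genes per 2000 UMIs of a cell in 4 classes, control library in blue and MYC library in red, as percent of the cells of that library. The curves of mature neutrophils (medians 7 and 5) and monocytes (9 and 7) lie further left in the MYC library, those of T or NK cells further right (11 and 14), and those of erythroid cells overlap.

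By the share of thinned cells with at least 1 UMI, H2-K1 was seen in 62.6% of control mature neutrophils and 40.2% of those of the MYC library (-22.5 points, -24.8 to -20.1), beside 79.5% and 68.7% without thinning. In monocytes it was 72.9% and 56.2% (-16.7 points) and, without thinning, 98.6% and 95.7%. Psmb8 was seen in 34.4% of control T or NK cells and 65.0% of those of the MYC library (30.6 points, 20.2 to 40.3), and in 71.0% and 77.2% without thinning. No class here is known to lack these genes. The lowest shares stood in erythroid cells, with 23.2% and 29.6% for H2-K1 and 3.18% and 7.98% for Psmb8 at 2000 UMIs.

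Erythroid cells were the lowest class of the control library for 7 of the 10 genes, and in the MYC library T or NK cells had the highest level for 9 of the 10, though for H2-D1 and Tap2 they did not differ beyond counting error from the next class, cluster 11 and basophils or mast cells. H2-K1 ran 7.94-fold in the control from T or NK cells (1669 CPM) over cluster 11 (1442 CPM), mature B cells (1021 CPM), basophils or mast cells (715 CPM), monocytes (688 CPM), stem or multipotent progenitors (680 CPM), granulocyte progenitors (621 CPM), mature neutrophils (572 CPM) and immature neutrophils (336 CPM) to erythroid cells (210 CPM). In this order monocytes did not differ from basophils or mast cells, nor from stem or multipotent progenitors, beyond counting error, and all other neighbours did. In the MYC library monocytes ranked 7 and cluster 11 ranked 3 of 10, and mature neutrophils (267 CPM) were not apart from erythroid cells (263 CPM), while immature neutrophils were lowest (199 CPM). Nlrc5 ran 25.2-fold in the control, from T or NK cells to immature neutrophils, and 57.1-fold in the MYC library, and Psmb8 11.3-fold from monocytes to erythroid cells in the control.

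Over the 20 combinations of class and library, Pearson correlations of log2(CPM+1) between pairs of members ranged from 0.15 (Tap2 and Psmb10) to 0.91 (B2m and Tapbp), which describes points that share libraries and depth. Among 4486 genes outside and inside the list with enough level and spread, the 5 non-members nearest to the members' mean profile were Elk3 (an ETS-family transcription factor, 0.945), Idnk (a gluconate kinase, 0.943), H2-T22 (a class Ib heavy chain, 0.911), Evl (an actin regulator, 0.905) and Ubac2 (0.905). H2-T22 stood at 42.9 and 26.0 CPM in mature neutrophils and at 91.6 and 123 CPM in T or NK cells of the control and MYC libraries.

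The pathway around the members was read with 6 lists. The interferon response companions, 14 genes that interferons induce in most cells, were lower by at least 1.5-fold in 13 of 14 cases in monocytes (median -1.65), in 12 of 14 in mature neutrophils (median -1.32) and in 11 of 14 in the neutrophil lineage (median -1.06), beside 17.5%, 22.3% and 21.3% of all genes. Rsad2, which encodes the antiviral enzyme viperin, stood at 53.3 CPM in control monocytes and 4.23 CPM in those of the MYC library (-3.66, -4.05 to -3.29). Ifit3 and Ifit1, which encode antiviral proteins that act on viral RNA, stood at 33.4 and 3.46 CPM (-3.27) and at 42.6 and 5.38 CPM (-2.98). In the neutrophil lineage Rsad2 had 68.96 and 17.0 CPM (-2.02), Oasl2 68.95 and 21.3 CPM (-1.70) and Ifit1 27.4 and 8.17 CPM (-1.75). T or NK cells differed from this: of 12 counted companions 1 was lower and 3 were higher, with a median of 0.39, beside 14.8% and 10.7% of all genes. The companions did not run in parallel with the members everywhere. In erythroid cells 8 of 13 were lower and 1 higher (median -0.94, beside 15.1% and 13.8% of all genes), where the members' median was 0.27, and in stem or multipotent progenitors 9 of 13 were lower (median -0.76, beside 15.5%), where it was -0.17.

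Among the 19 regulators, which include interferon receptors, kinases and promoter factors, 8 were lower in the neutrophil lineage and 5 in monocytes, and 0 higher in either, beside 21.3% and 17.5% of all genes lower, so the count in monocytes is not far from the background. Stat2, a signal carrier of the type I interferon receptor, had 22.9 and 9.79 CPM in the neutrophil lineage (-1.23, -1.38 to -1.08) and 69.9 and 23.8 CPM in monocytes (-1.55, -1.74 to -1.37). Irf9, a DNA-binding factor of the interferon response, had 49.1 and 25.6 CPM (-0.94, -1.04 to -0.84) in the former and 86.5 and 49.8 CPM (-0.79, -0.93 to -0.66) in the latter. In T or NK cells 3 of 17 were lower and 1 was higher, near the 14.8% and 10.7% of all genes. The higher one was Irf1, an interferon-gamma induced activator of class I promoters, at 72.4 and 167 CPM (1.21, 0.89 to 1.52), named after its value was seen.

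The class Ib and minor class I heavy chains, relatives of H2-K1 with restricted or specialised roles, had medians below 0 in neutrophils and monocytes. At least 1.5-fold lower were 7 of 8 counted genes in monocytes (median -0.81), 5 of 7 in mature neutrophils (median -1.24), 4 of 8 in immature neutrophils (median -0.69), 1 of 8 in granulocyte progenitors (median -0.14) and 0 of 6 in T or NK cells (median 0.40). The shares of all genes lower were 17.5%, 22.3%, 17.9%, 26.6% and 14.8% in these classes. H2-T24 stood at 15.2 and 3.84 CPM in monocytes (-1.98, -2.43 to -1.55) and had 20.3 and 8.60 CPM in the neutrophil lineage (-1.24). H2-Q6 and H2-Q7, near-identical neighbours whose reads counting may have split, stood at 16.1 and 7.81 CPM (-1.05) and at 45.3 and 24.7 CPM (-0.88) in the neutrophil lineage. Cd1d1, which presents lipids, stood at 7.14 and 2.95 CPM in monocytes (-1.28, -1.84 to -0.74).

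Of the 6 genes for peptide loading and trimming beyond the members, 0 were lower in monocytes, where 17.5% of all genes were, and 2 in the neutrophil lineage, where 21.3% were. These 2 were the chaperones Calr (285 and 176 CPM, -0.70, -0.74 to -0.66) and Canx (142 and 93.9 CPM, -0.59). By class, 4 of 6 were lower in granulocyte progenitors (median -0.67), beside 26.6% of all genes. In immature and mature neutrophils 0 of 6 were lower (medians -0.16 and -0.21), beside 17.9% and 22.3%. Basophils or mast cells had 4 of 6 lower (median -0.73), beside 20.8%. The median of this list was -0.18 in monocytes, near the -0.13 of all genes. The 4 genes of the proteasome activator and assembly list had 0 lower and 0 higher in monocytes (median -0.07) and in the neutrophil lineage (median 0.07), too few genes to read against these shares.

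**Figure D5:**
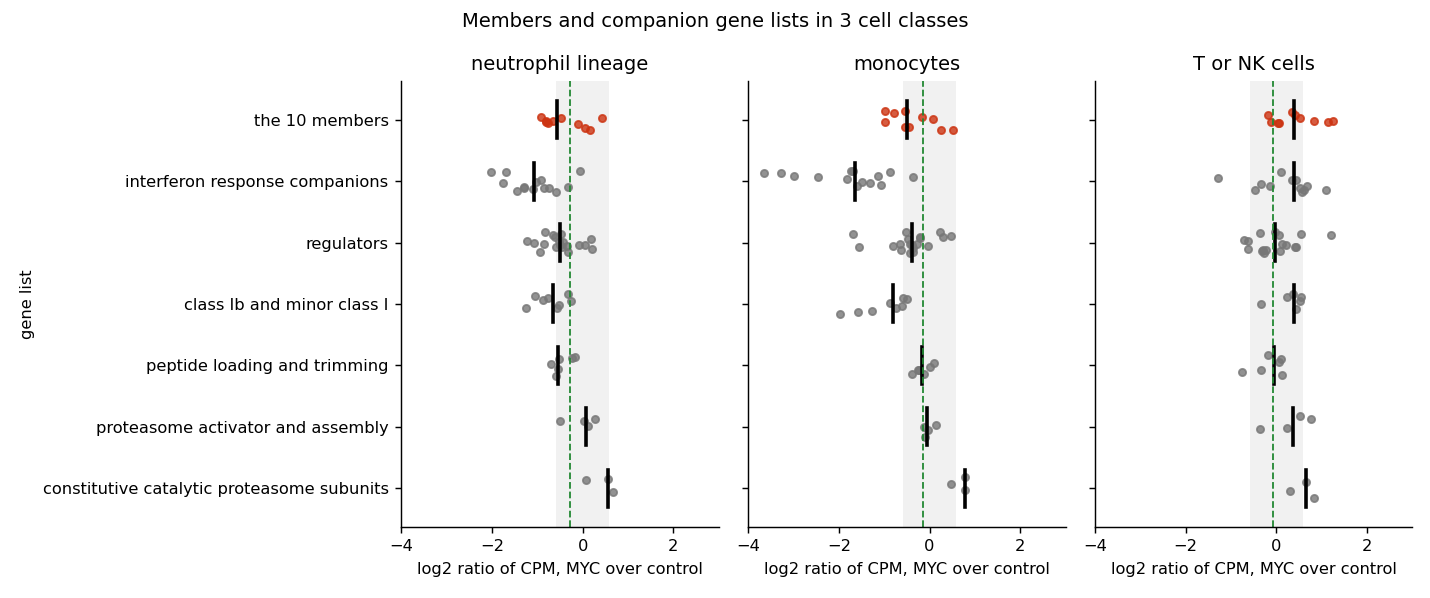
Log2 ratio of CPM, MYC library over control library, for single genes (points, with at least 50 UMIs) of the 10 members and 6 companion lists in the neutrophil lineage, monocytes and T or NK cells; black bars are list medians, the green dashed line is the median of all genes and the grey band is under 1.5-fold. Interferon companions lie far left in monocytes (median -1.65), where the members' median is -0.49, and near 0.39 in T or NK cells.

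The T or NK class held 400 control cells and 149 cells of the MYC library in 1 cluster, and its makeup differed between the libraries. The summed level of the 11 T-cell markers was 2358 CPM in the control against 3112 in the MYC library, with 8 of 11 higher, and that of the 10 NK-cell markers was 3286 and 7332 CPM, with 4 of 10 higher and Ccl5 at 1657 and 5604 CPM. All markers of both lists were detected. The part of these shifts in the higher Psmb8, Psmb9 and Psmb10 of this class was not tested.

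Over all kept cells the class shares entered as well. H2-K1 stood at 574 CPM in the control against 411 in the MYC library (-0.48), B2m at 1281 and 891 CPM (-0.52), Tapbp at 130 and 77.3 CPM (-0.75), Nlrc5 at 12.2 and 7.21 CPM (-0.76) and Psmb8 at 146 and 252 CPM (0.79). Of the 10 members 2 were at least 1.5-fold lower and 1 higher, against 22.2% and 8.22% of all genes. With the UMI share of every class held at its control value the ratios became -0.37 for H2-K1, -0.48 for B2m, -0.84 for Tapbp, -0.41 for Nlrc5 and 0.69 for Psmb8. Of all 10 members the ratio of Nlrc5 differed most between these readings.

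Classes with under 100 cells in either library are given as levels only. Macrophages numbered 20 in the control against 631 in the MYC library, with 2041 and 897 CPM of H2-K1 and 3496 and 1439 CPM of B2m. Plasmacytoid dendritic cells (244 and 60 cells), the main makers of type I interferon, had 1225 and 742 CPM of H2-K1, 312 and 145 CPM of Tapbp and 280 and 554 CPM of Psmb8. Plasma cells (253 and 88 cells) had 973 and 1009 CPM of H2-K1, and H2-D1 held 36.4% and 48.7% of their heavy chain UMIs.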

How the data were processed

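Single-cell 3′ libraries of mouse bone marrow were made with a droplet kit of version 2, per the labels' protocols. The deposited values are the authors' raw UMI counts for each barcode and gene, and the file headers name Cell Ranger 6.0.0. The submitters' processing notes name Cell Ranger 6.0, Seurat, GRCm38 and mm10. The annotation, strand setting and calling of cells are not given in the sources used here. The control library held 17073 barcodes and 131884603 UMIs, the MYC library 14496 and 110012176.

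Barcodes needed 500 UMIs, 200 detected genes and a mitochondrial share below 10%. Scrublet doublets were removed at a score of 0.2 in both libraries (3.61% and 2.76% of cells), since its automatic threshold marked 0 cells in the MYC library. Both libraries were clustered together with scanpy 1.11.5 and the Leiden method at resolution 1 on 15 neighbours in 30 components of 2000 variable genes, without the members and pathway lists. Marker lists for 19 cell types gave the cluster names. A cluster whose leading genes went against its best type, or of low depth, stayed unnamed. Counts were summed per class and library. CPM intervals are exact Poisson, ratio intervals exact conditional binomial, share intervals Clopper-Pearson, and differences of shares use Newcombe's method. The sums and intervals were tested on simulated data. UMIs are counted molecules, and intervals cover counting error only.

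All members are named, with at most the 3 highest and 3 lowest genes of each pathway list past 1.5-fold in the neutrophil lineage or monocytes with at least 100 UMIs, and the 5 genes nearest to the members' profile. A gene that this rule would name is not reported here. The members and lists were chosen with earlier results of these data known. Alternatives in scaling, filters, doublets, clustering and thresholds were tried.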

Additional observations from a re-analysis of the deposited data

How the results depend on the processing

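No paired analysis was possible because each genotype has 1 library. The 119 ratios include those of the joined neutrophil lineage and of all kept cells, which use cells of the classes again. Of these 119, 40 passed 1.5-fold. All 40 kept their sign under the scaling, cell-filter and class alternatives run for their class, 21 of them past 1.5-fold in each. Clusters on their own are not among these alternatives. There Nlrc5 of mature neutrophils turned sign, at 0.17 in cluster 4 (58 and 7 UMIs) and 0.55 in cluster 5 (1 and 20 UMIs). Of all 119 ratios, 99 kept their sign; among the others were H2-D1 in mature neutrophils (-0.29 to 0.01) and Psmb9 in mature neutrophils (-0.07 to 0.27). H2-K1 ranged from -1.16 to -0.87 in mature neutrophils and from -0.93 to -0.49 in monocytes, and Psmb8 from 1.07 to 1.35 in T or NK cells. Counts of members called did move, as follows, and causes were not tested. Where no share of all genes stands beside a count, it shows only how the count moved with the setting. Such a count is no result about the members. At a fold of 2, which 3.29% to 10.2% of all genes passed lower and 0.798% to 4.16% higher over the classes, the counts lower were 0 in granulocyte progenitors, 1 in immature neutrophils, 2 in mature neutrophils, 0 in monocytes, 2 in cluster 11, 0 in mature B cells, 0 in stem or multipotent progenitors, 0 in the neutrophil lineage and 0 in all kept cells, and those higher were 1 in erythroid cells and 0 in granulocyte progenitors, mature B cells, stem or multipotent progenitors, basophils or mast cells and all kept cells. With median-of-ratios scaling, which adds 0.06 to 0.30 to every ratio, the counts lower were 0 in granulocyte progenitors, 3 in mature neutrophils, 3 in cluster 11, 0 in mature B cells, 0 in stem or multipotent progenitors, 1 in the neutrophil lineage and 0 in all kept cells, and those higher were 1 in immature neutrophils, monocytes, cluster 11 and the neutrophil lineage and 2 in stem or multipotent progenitors, basophils or mast cells and all kept cells. With the 20 most abundant genes left out of the denominator, where the share of all genes ran from 17.6% to 39.1% lower and 3.38% to 10.4% higher, 6 were lower in monocytes, 2 in mature B cells (0 higher), 2 in erythroid cells (1 higher) and 3 in stem or multipotent progenitors. With the mean over cells, 2 were lower in mature B cells and 4 in all kept cells. With cells under 5% mitochondrial UMIs, 1 was higher in cluster 11 and 2 in all kept cells, and 2 were lower in stem or multipotent progenitors. With doublets kept, 0 were lower in mature B cells and in stem or multipotent progenitors, and 1 was higher in erythroid cells. At a Leiden resolution of 0.5, 1 was lower and 1 higher in monocytes, part of which stayed unnamed, and there was no class of stem or multipotent progenitors. At a resolution of 2, 1 was higher in erythroid cells, and 0 were lower and 2 higher in stem or multipotent progenitors. There and with doublets kept a cluster of low depth took the name erythroid. With each cell classified by its markers alone, 1 was lower in granulocyte progenitors, and 0 were lower and 2 higher in stem or multipotent progenitors. With no minimum of UMIs, 2 were lower in basophils or mast cells. Clusters on their own, an alternative added after seeing the data, gave 2 higher in cluster 21 of the immature neutrophils (8.39% of all genes), 1 lower and 1 higher in cluster 4 and 2 lower and 1 higher in cluster 5 of the mature neutrophils, 6 lower in cluster 7 of the monocytes (21.7%), 2 lower and 1 higher in erythroid cluster 6 (15.8% and 14.0%) and 1 higher in erythroid cluster 17 (8.68%). The remaining counts stayed within 1.5 times.

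Shares turned sign in 6 cases: the difference of Psmb10 in monocytes was 0.22 points at a resolution of 0.5, those of Psmb9 and H2-D1 in erythroid cells 0.28 and 2.24 points with doublets kept, and that of Psmb8 in all kept cells -0.48 points with cells under 5% mitochondrial UMIs. Thinned to 1000 UMIs, the share of cells with a UMI differed by 0.19 points for H2-K1 in mature B cells and by -0.40 points for H2-D1 in all kept cells. Depth limits Nlrc5 most, with 14 to 234 UMIs per class and library in the classes counted.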
